A study of Drosophila melanogaster with 2 samples.

Results

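The genes described here are 10 core genes of epidermal growth factor (EGF) receptor and Ras signalling in Drosophila melanogaster, namely spi, vn, rho, Egfr, Ras85D, Raf, aos, sty, pnt and aop. They were read for binding of Rx, the paired-class homeodomain protein of the retinal homeobox gene. A peak was counted for a gene when the summit fell inside it or no more than 10 kb away, by the Ensembl annotation of the dm6 genome. This took 34 of the 3250 peaks that the main list held on the chromosome arms, and 10 of 13968 protein-coding genes. The embryos were whole, 0 to 24 h old and of the strain named Rx-GFP, which carries a transgene for Rx joined to eGFP. Chromatin was immunoprecipitated with an antibody against GFP and sequenced (ChIP-seq). There was 1 group with 2 biological replicates and no second condition, so values are compared between the replicates, between genes and with the rest of the peaks. No test between conditions was possible with this design, and every share below is a description of the lists.

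EGF receptor signalling starts when a membrane-bound ligand such as Spitz (spi) is cleaved by the protease Rhomboid (rho), or when Vein (vn) is secreted directly. The activated receptor (Egfr) switches the small GTPase Ras (Ras85D) to its active state, and Ras activates the kinase Raf at the head of a cascade that ends at MAP kinase. In the nucleus MAP kinase activates the ETS factor Pointed (pnt) and inactivates the ETS repressor Yan (aop). Argos (aos) sequesters the ligand outside the cell, and Sprouty (sty) blocks the pathway inside it. In the embryo the pathway patterns the ventral ectoderm, the head and the nervous system, and in the developing eye it recruits photoreceptors.

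The sequence around the summit of the highest main-list peak is shown for 6 genes, since these are the positions at which the signal near each gene was strongest. Each run holds up to 200 bases of the plus strand of the RefSeq Release 6 genome, and bases in untranslated regions were left out. The windows are 2L:19575663-19575862 for spi, X:2297617-2297816 for Raf, 3L:16480467-16480666 for aos, 2L:2163574-2163773 for aop, 3L:3394994-3395193 for sty and 3R:23281047-23281200 for pnt. Capitals mark the word GAGAG and the pair ACAGTG and ACACTG on either strand, which are compared with other peaks further on.
spi: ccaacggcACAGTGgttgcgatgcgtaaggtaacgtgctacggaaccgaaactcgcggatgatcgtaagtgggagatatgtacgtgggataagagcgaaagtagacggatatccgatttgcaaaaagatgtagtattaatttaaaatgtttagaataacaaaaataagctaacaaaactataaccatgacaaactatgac
Raf: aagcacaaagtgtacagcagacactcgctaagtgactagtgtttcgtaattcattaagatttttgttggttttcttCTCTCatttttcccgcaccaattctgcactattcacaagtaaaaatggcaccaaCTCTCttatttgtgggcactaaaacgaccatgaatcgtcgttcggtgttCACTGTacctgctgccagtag
aos: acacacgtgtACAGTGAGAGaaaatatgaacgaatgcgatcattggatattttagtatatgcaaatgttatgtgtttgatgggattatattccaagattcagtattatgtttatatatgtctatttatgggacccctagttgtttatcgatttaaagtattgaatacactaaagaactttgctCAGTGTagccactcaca
aop: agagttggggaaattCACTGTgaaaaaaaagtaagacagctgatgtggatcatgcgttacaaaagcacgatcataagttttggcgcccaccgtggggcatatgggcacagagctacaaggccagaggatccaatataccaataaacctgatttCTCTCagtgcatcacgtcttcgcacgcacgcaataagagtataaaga
sty: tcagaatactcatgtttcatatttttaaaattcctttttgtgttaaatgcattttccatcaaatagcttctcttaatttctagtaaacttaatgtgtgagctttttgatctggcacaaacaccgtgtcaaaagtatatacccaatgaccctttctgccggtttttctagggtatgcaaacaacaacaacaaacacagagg
pnt: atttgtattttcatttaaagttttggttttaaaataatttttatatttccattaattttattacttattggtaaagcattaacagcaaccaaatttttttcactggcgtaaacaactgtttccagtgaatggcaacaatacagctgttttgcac

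Of these 6 positions, that of spi lay at a promoter of its own gene and those of Raf, aos and aop lay in introns of their genes. The position of sty was intergenic and that of pnt was the promoter of Cdc16, a gene for a subunit of the anaphase-promoting complex. The Raf run holds ACAGTG and 2 copies of GAGAG read on the minus strand, as CACTGT and CTCTC. In aos a copy of ACAGTG runs directly into GAGAG, and ACACTG stands near the end of the window. No searched word occurs in the sty and pnt runs.

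The data were 8 peak lists. A threshold on the irreproducible discovery rate (IDR), a measure of how well the ranks of peaks recur between data sets, had been applied to 4 of them, and the other 4 were the longer ranked lists. Each replicate had a list of both kinds, and the rest were series-wide. The main list is the series-wide one that the authors named conservative, with the threshold applied. On the arms the main list held 3250 peaks and the other series-wide thresholded list 3423, while the own lists of the replicates held 2411 (replicate 1) and 2176 (replicate 2). Peak height is the authors' signal value. Its scale was not stated, and heights are used only within a list and as a ratio of the replicates. The height in a replicate is that of the highest overlapping peak in its own ranked list. No read counts were used here, so the depth is unknown. In whole embryos, strong binding in few cells and weak binding in many cannot be told apart.

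In the main list, 7 of the 10 genes had a summit. Raf had 11, aop 6, sty 5, spi and pnt 4 each, aos 3 and Egfr 1, whereas vn, rho and Ras85D had none. Across all protein-coding genes 51.6% had a summit inside or at most 10 kb away, so 7 of 10 is not far from the background. The other series-wide list gave 7 genes and 35 summits, against 53% of all genes. Replicate 1 alone gave 6 genes and 33 summits, against 44% of all genes, and replicate 2 alone gave 6 genes and 28 summits, against 41.8%. Of the 7 genes, Egfr was the only one with no summit in either replicate's list.

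Gene length bears on these counts. Of the 10 genes, 6 are 20 to 60 kb long (vn, Egfr, Raf, sty, pnt and aop), and 5 of these 6 had a summit, against 64.8% of all protein-coding genes of that length. All 7 genes with a summit had one inside the gene itself, where 20 of the 34 summits lay. Among all protein-coding genes 9.4% had a summit in the gene, and among those of 20 to 60 kb the share was 42.3%, against 5 of the 6 long members. The length class was chosen after the data were seen, and the members with earlier results known, so this is a description only. A main-list summit was nearer to a start of the gene than to any other protein-coding start in 7 of 10 genes, against 16.6% of all genes. That share was not matched for gene length or for number of starts, of which the 10 genes have 18. Of the 34 summits 22 were nearest to a start of the member gene and 12 to a start of a neighbour.

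**Figure D1:**
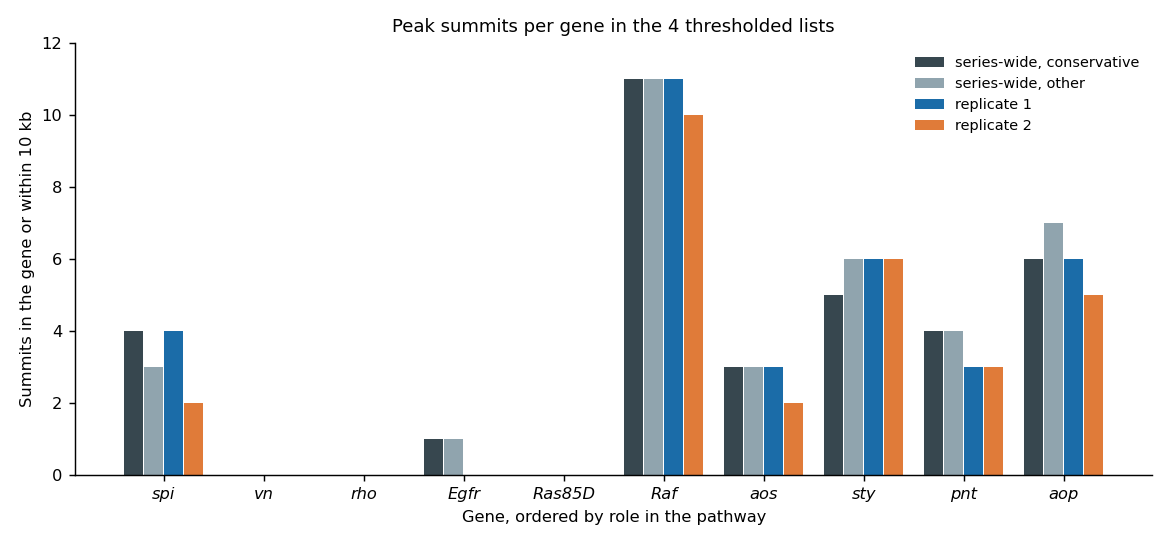
Number of peak summits in or within 10 kb of each gene (bars, from 0) in the 4 thresholded lists, with genes ordered from ligands to nuclear effectors. Raf had 11 summits in 3 of the lists and 10 in that of replicate 2, vn, rho and Ras85D had 0 in each list, and Egfr had 1 in the series-wide lists and 0 in those of the replicates.

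Summits stood more densely in these regions than over the arms as a whole. The 10 genes with their flanks cover 450.6 kb and held 7.55 summits per 100 kb, against 2.36 per 100 kb over the arms. The arms were taken at full length, with chromosome 4 and the Y. No density over the regions of other genes was computed, so whether these genes differ from others was not tested. Without Raf the remaining 23 summits gave 6.02 per 100 kb. In replicate 1 the density was 7.32 per 100 kb against 1.75 over the arms, and in replicate 2 it was 6.21 against 1.58. The median distance to the nearest other main-list summit was 2591 bp for the members' peaks and 6389 bp for all others. The ranked lists, which hold many weak peaks, differed far less, with 124.7 summits per 100 kb in these regions and 98.8 over the arms in the list behind the main list.

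The ligand gene spi (FBgn0005672, 2L:19567900-19577315, minus strand) had its strongest peak at 2L:19575749-19575837. Its height was 151.8 in replicate 1 and 105.2 in replicate 2, and 258.2 in the main list, where it ranked at 276. The summit lay 176 bp upstream of an internal start of spi and in intron 1 of the longer transcripts, 1552 bp into the gene. A second summit in spi, 318 bp upstream of another internal start, reached 48.5 in replicate 1 and 28.2 in replicate 2 and only the thresholded list of replicate 1 held it. Of the 3 annotated starts of spi, 2 thus had a main-list summit within 500 bp.

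The remaining summits counted for spi were upstream, at the promoters of neighbours. One lay 37 bp from a start of Hakai, a ubiquitin ligase gene, with heights of 32.1 in replicate 1 and 38.6 in replicate 2, and was in both thresholded lists. The other lay 62 bp from a start of CG10366, with 33.1 in replicate 1 and 26.7 in replicate 2, and only replicate 1 had it in its list. It was the only member peak whose window held CCGGAA, the core word of ETS factors such as Pointed and Yan.

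The ligand gene vn and the protease gene rho had no summit in any of the 4 thresholded lists. Their highest ranked peaks in the list behind the main list were at 3L:5838909-5839192, in an intron 6613 bp from the start of vn, with a height of 50.1, and at 3L:1463487-1463770, 182 bp upstream of the start of rho, with a height of 47.7. The IDR score is a whole number of at most 1000, and its lowest value in a thresholded list was 830. In the list behind the main list it was 383 for the vn peak and 467 for the rho peak. In the ranked list behind the other series-wide list the same peaks scored 755 (vn) and 807 (rho), nearer to 830 but still below it. Within 500 bp of the start of vn no ranked list had a summit. The nearest main-list summit to rho stood just outside the limit, 10566 bp away at 3L:1479472-1479543 with a height of 143.0, inside stet, a related rhomboid protease gene. On the inner side of the limit the furthest summit was 9984 bp from pnt, with a height of 46.3.

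The receptor gene Egfr (FBgn0003731, 2R:21522420-21559977, plus strand) had 1 weak summit in the main list. Its height was 30.9 in replicate 1 and 32.5 in replicate 2, and 65.4 in the main list, where it ranked at 2413. The peak, at 2R:21527398-21527681, lay in intron 1, 5120 bp after the upstream start, and was in the thresholded list of neither replicate. The other series-wide list left this peak out and held another instead, 7236 bp upstream of the gene at 2R:21515042-21515325, with a height of 48.6. Near the starts of Egfr the highest ranked peak reached 18.8 in replicate 1 and 15.9 in replicate 2.

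Ras85D (FBgn0003205, 3R:9510561-9513067, minus strand), the gene for the Ras GTPase, had no thresholded summit. The highest ranked peaks near its start differed in position between the replicates. In replicate 1 a peak of 37.0, at 3R:9513010-9513289, stood 83 bp upstream of the start. In replicate 2 the highest ranked peak within 500 bp of the start was another, inside the gene at 3R:9512535-9512790, with a height of 20.3. These peaks did not overlap, so their heights are not those of a single peak. In the list behind the main list the peak upstream of the start, at 3R:9512988-9513271, had a height of 53.0 and an IDR score of 575. Ranked peaks as a whole were few here in replicate 1, where 5 summits lay in the region (22.2 per 100 kb, against 71.7 over the arms), and 19 in replicate 2 (84.4 per 100 kb, against 82.3 over the arms).

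**Figure D2:**
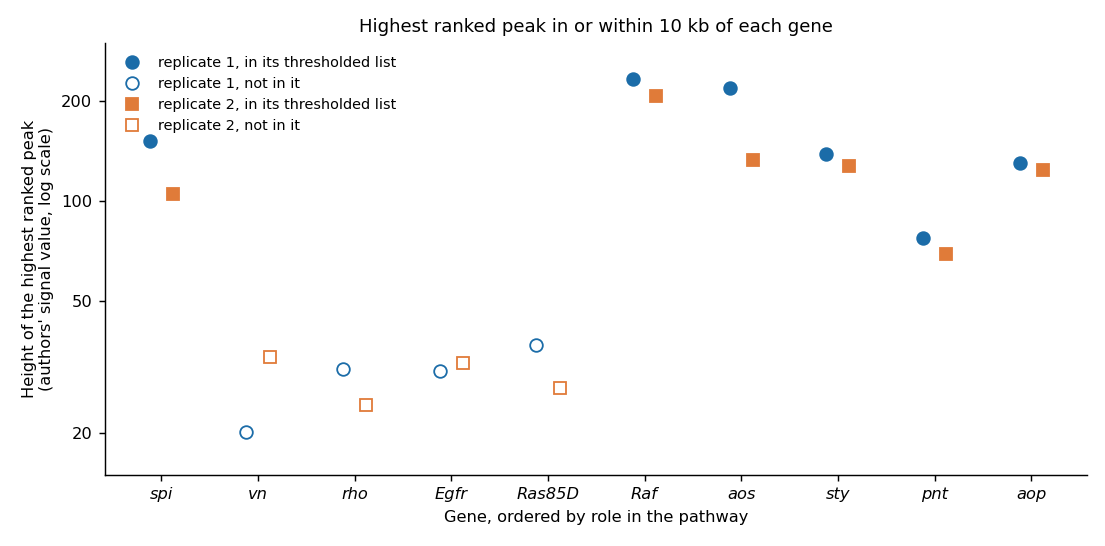
Height of the highest ranked peak in or within 10 kb of each gene (log scale) in replicate 1 (circles) and replicate 2 (squares). Filled symbols are peaks in that replicate's thresholded list and open symbols are peaks that are not in it. Heights ran from 69.5 to 233.0 in the 6 genes with filled symbols and from 20.2 to 37.0 in vn, rho, Egfr and Ras85D. At vn, rho and Ras85D the replicates' symbols are different peaks.

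By their highest ranked peak, the 6 genes with a peak in the replicates' thresholded lists stood above the other 4 in both replicates. The threshold itself rests on the ranks of peaks, so this split is not separate evidence. Replicate 1 had 233.0 at Raf, 218.4 at aos, 151.8 at spi, 139.0 at sty, 130.5 at aop and 77.5 at pnt. Replicate 2 had 207.2 at Raf, 132.9 at aos, 127.2 at sty, 124.1 at aop, 105.2 at spi and 69.5 at pnt. Raf was highest, aos next and pnt lowest of these 6 in each replicate, while spi stood above sty and aop in replicate 1 and below them in replicate 2. The other 4 genes did not keep their order, with 20.2 at vn, 31.2 at rho, 30.9 at Egfr and 37.0 at Ras85D in replicate 1, and 34.0, 24.4, 32.5 and 27.4 in that order of genes in replicate 2. At vn, rho and Ras85D the highest peaks of the replicates did not overlap, so their heights are not those of a single peak.

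Raf (FBgn0003079, X:2295466-2343870, plus strand), the kinase gene that Ras acts on, had the most summits. It was 1 of 5 protein-coding genes (0.0358%) with at least 11 main-list summits by the same rule. That share was not matched for gene length, and Raf with its flanks covers 68.4 kb. The strongest peak, at X:2297631-2297815, reached 233.0 in replicate 1 and 207.2 in replicate 2, and 436.8 in the main list, where it ranked at 87. The next, at X:2300621-2300788, reached 194.5 in replicate 1 and 196.2 in replicate 2, and ranked at 108. These heights differed between the replicates by ratios of 1.12 and 0.991 (replicate 1 over replicate 2). The remaining 9 peaks reached 40.2 to 98.1 in replicate 1 and 45.7 to 67.6 in replicate 2.

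The peaks of Raf sat upstream of its coding part. The gene has a start at each end of a 44.8 kb stretch, and the protein is encoded downstream of both. Of the 10 summits inside the gene, 9 lay in intron 2 of the long transcript, which is 43.6 kb long, and 1 lay in a 5′ untranslated exon, 794 bp after the upstream start. No summit lay in a coding exon. The furthest downstream summit was 10.8 kb before the downstream start and 11.4 kb before the first coding base. No summit was within 500 bp of either start of Raf. The 11th summit, 1713 bp upstream of the gene, was at the promoter of CG2865, 342 bp from its start.

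Spacing along Raf was uneven. The first 8 summits, counted from upstream, spanned 12.8 kb, with 1452 to 2507 bp between neighbours. The widest gap, 11964 bp, followed. It held an annotated copy of the Tirant retrotransposon (X:2308848-2317374, 8.53 kb), in which all 8 lists had 0 summits. Whether reads could be placed in this element was not tested. The 3 remaining summits lay 23064, 26588 and 34040 bp after the upstream start. They stood nearest to the starts of the protein-coding genes CG14050 and CG2854, which lie within the intron. No summit was inside CG14050, CG2854 or the insulin-like peptide gene Ilp6, which is nested there too. The summit at 26588 bp lay in an exon of a noncoding gene, lncRNA:CR34052.

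**Figure D3:**
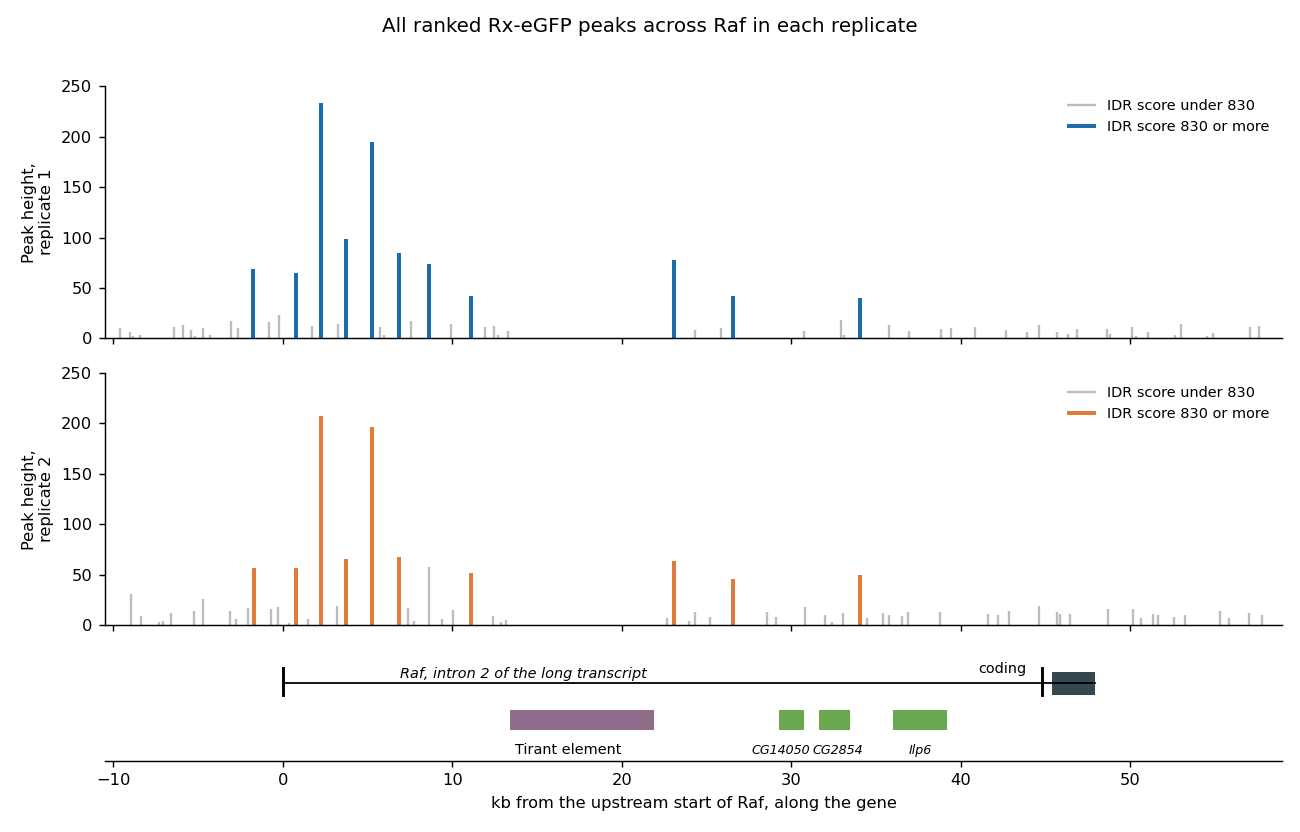
Heights of all ranked peaks (vertical lines, authors' signal value) against distance from the upstream start of Raf in kb, in replicate 1 (top) and replicate 2 (middle), coloured where the IDR score was at least 830. The bottom row shows both starts (ticks), the coding part (dark box), the Tirant element and the 3 nested protein-coding genes. The 2 highest peaks stand 2251 and 5240 bp after the start in replicate 1 and 2262 and 5235 bp after it in replicate 2, and no peak falls in the Tirant element.

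Raf peaks recurred between the replicates. Of the 11 peaks, 10 overlapped a thresholded peak of both replicates (90.9%, 95% Wilson interval 62.3 to 98.4%). The exception, 8653 bp after the start, was missing from the list of replicate 2, with heights of 74.0 in replicate 1 and 58.0 in replicate 2. All 11 heights were within a factor of 2 between the replicates, with ratios from 0.806 to 1.49.

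The inhibitor gene aos (FBgn0004569, 3L:16470386-16483650, minus strand) had the highest member peak outside Raf. At 3L:16480489-16480659 it reached 218.4 in replicate 1 and 132.9 in replicate 2, and 353.2 in the main list, where it ranked at 139. The summit lay in intron 1, 3083 bp after the only annotated start. A lower summit stood 344 bp upstream of that start, with 65.1 in replicate 1 and 45.4 in replicate 2, and was in both thresholded lists. The last, 3019 bp upstream, had 64.2 in replicate 1 and 36.8 in replicate 2, and the list of replicate 2 did not hold it. All 3 were higher in replicate 1, by ratios of 1.43 to 1.74, and all 3 also lay within the overlapping gene CG33158.

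The inhibitor gene sty (FBgn0014388, 3L:3401153-3424935, minus strand) had a cluster downstream of the gene. It held 3 summits within 851 bp, between 5638 and 6489 bp past the 3′ end of sty and 16396 to 17247 bp from the nearest protein-coding start, that of Ids. The central peak, at 3L:3394978-3395137, reached 139.0 in replicate 1 and 127.2 in replicate 2, and ranked at 308 in the main list. Its neighbours reached 85.8 and 63.9 in replicate 1, and 80.4 and 83.8 in replicate 2. All 3 were in both thresholded lists.

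Both other sty summits differed more between the replicates. One, in intron 1 and 1000 bp upstream of an internal start, had 93.3 in replicate 1 and 47.3 in replicate 2, a ratio of 1.97. The other, 7863 bp upstream and in an intron of eIF5B, a translation initiation factor gene, had 110.6 in replicate 1 and 39.9 in replicate 2. Its ratio of 2.77 was the highest among the 34 peaks, and the only one beyond a factor of 2. Both peaks were nevertheless in both thresholded lists. Neither start of sty had a summit within 500 bp.

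The gene pnt (FBgn0003118, 3R:23290231-23346167, minus strand), which encodes the ETS activator, had 2 summits inside it. One, in intron 3 and 12182 bp from its nearest start, had 61.3 in replicate 1 and 62.1 in replicate 2, and was in both thresholded lists. The other, also in intron 3, had 37.9 in replicate 1 and 33.9 in replicate 2, and was in neither. The highest peak counted for pnt lay 9084 bp past its 3′ end, 54 bp from a start of Cdc16, with 77.5 in replicate 1 and 69.5 in replicate 2. The lowest was 87 bp from a start of ATPsynCF6, a gene for a subunit of the ATP synthase, with 24.6 in replicate 1 and 30.0 in replicate 2, and was in neither thresholded list. None of the 3 starts of pnt had a summit within 500 bp.

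The gene aop (FBgn0000097, 2L:2156484-2178754, minus strand), which encodes the ETS repressor Yan, had 3 summits within it, 3100 bp apart at most. The strongest, at 2L:2163613-2163720, reached 130.5 in replicate 1 and 124.1 in replicate 2, and ranked at 281 in the main list. It was intronic, 2147 bp upstream of an internal start of aop. A summit 296 bp upstream of that start had 47.5 in replicate 1 and 54.8 in replicate 2, and was in both thresholded lists. The remaining one had 25.7 in replicate 1 and 46.8 in replicate 2, and was the only member peak held by the list of replicate 2 but not by that of replicate 1.

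Outside aop a summit 1511 bp upstream of its 5′ end reached 115.6 in replicate 1 and 78.3 in replicate 2. Another, 4211 bp upstream in an exon of lncRNA:CR43751, had 47.7 in replicate 1 and 37.3 in replicate 2. The summit furthest downstream lay 49 bp from a start of Tbcd, a tubulin folding cofactor gene, with 108.6 in replicate 1 and 79.8 in replicate 2.

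**Figure D4:**
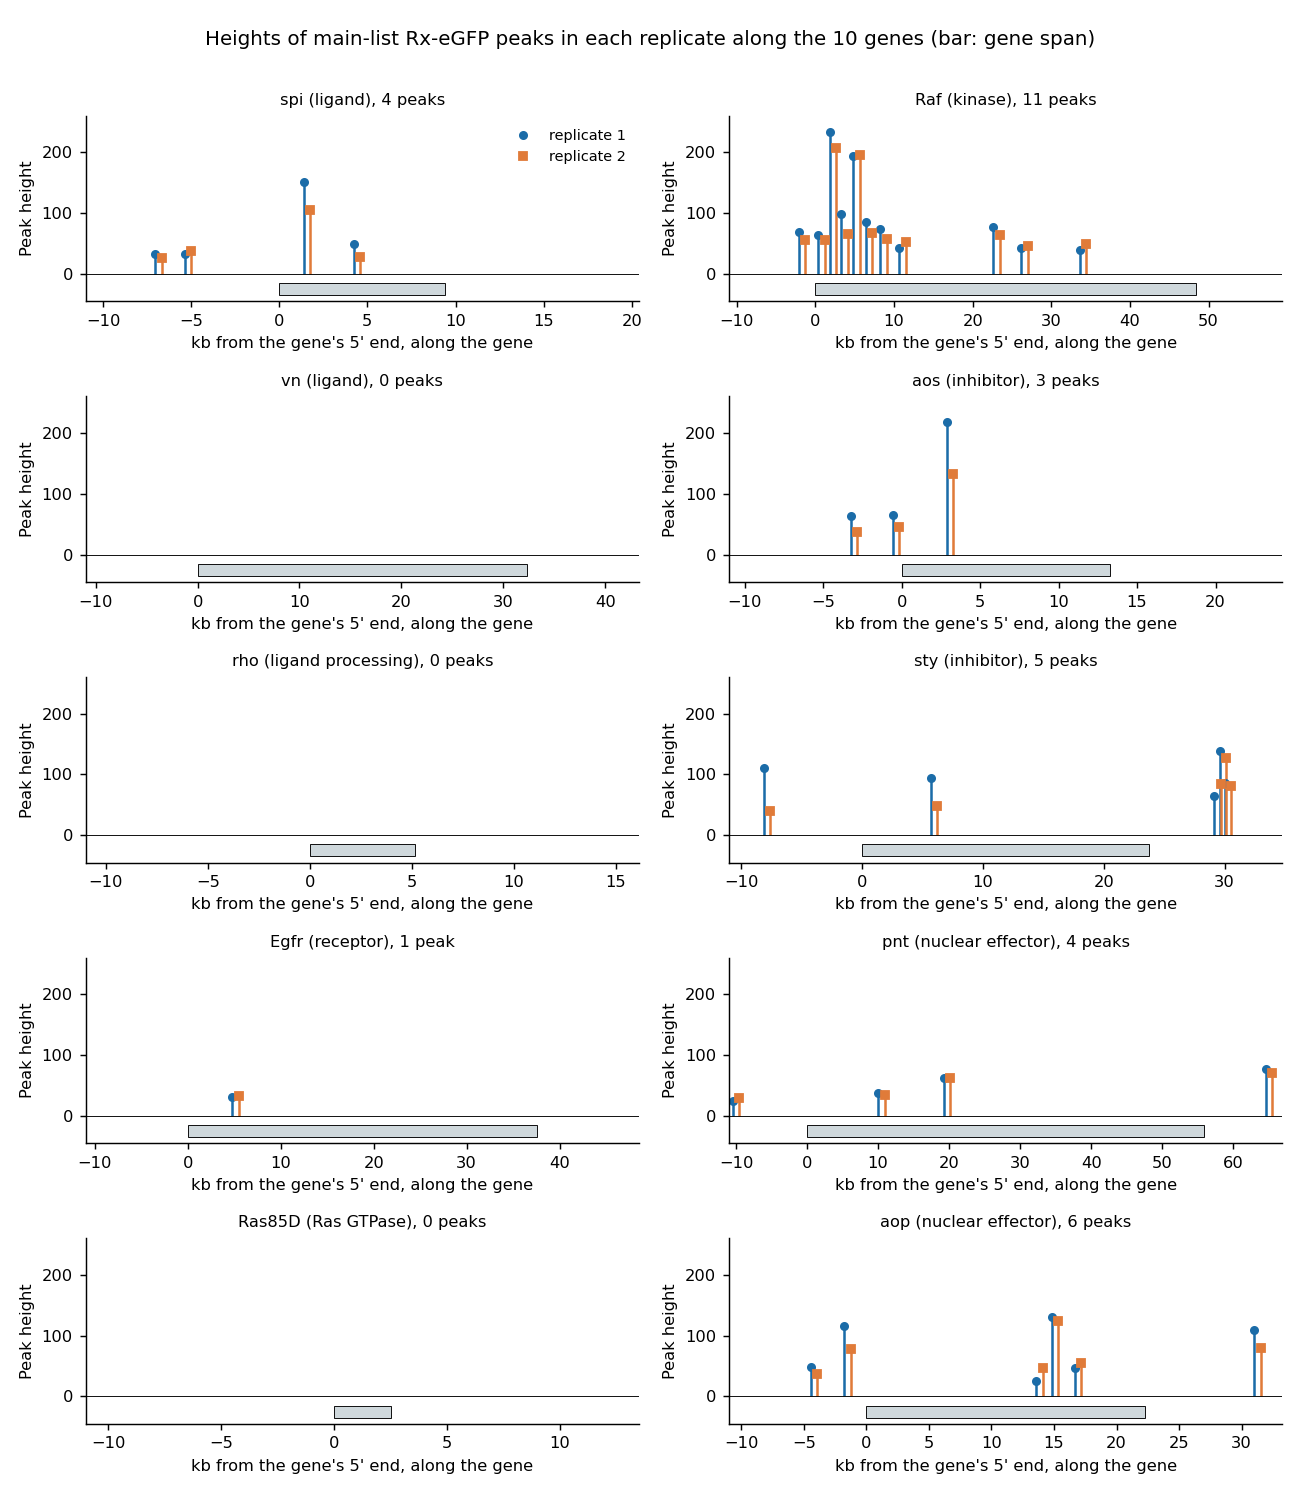
Heights of the 34 main-list peaks in replicate 1 (circles) and replicate 2 (squares, set slightly to the right) against distance from the 5′ end of each gene in kb, in the direction of transcription, with the gene drawn as a grey bar. The peaks of Raf crowd the first 12 kb of the gene, those of sty include a cluster past its 3′ end, and the panels of vn, rho and Ras85D hold none.

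Over the 34 peaks, 25 overlapped a thresholded peak of both replicates (73.5%, 95% Wilson interval 56.9 to 85.4%), against 50.4% of the 3216 other main-list peaks. Without Raf the share was 15 of 23 (65.2%, 44.9 to 81.2%), an interval that includes the share of the others. A further 5 peaks were in the list of replicate 1 alone, 1 in that of replicate 2 alone and 3 in neither. Intervals are over peaks, several of which share a gene, and cover counting error only.

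Members' peaks were taller than most. The median height was 126.8 in the members' peaks and 89.8 in the other main-list peaks, and the members' heights ran from 46.3 to 436.8. In replicate 1 the median was 67.1 for the members' peaks and 47.6 for the others, and in replicate 2 it was 56.6 for the members' peaks and 44.2 for the others. Within the main list the median height percentile of the members was 68.7. Heights were within a factor of 2 between the replicates in 33 of 34 member peaks (97.1%) and in 96.3% of the others. Replicate 1 was higher in 23 of 34 (67.6%), with a median ratio of 1.13 (replicate 1 over replicate 2), against 58.5% and 1.07 for the others.

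**Figure D5:**
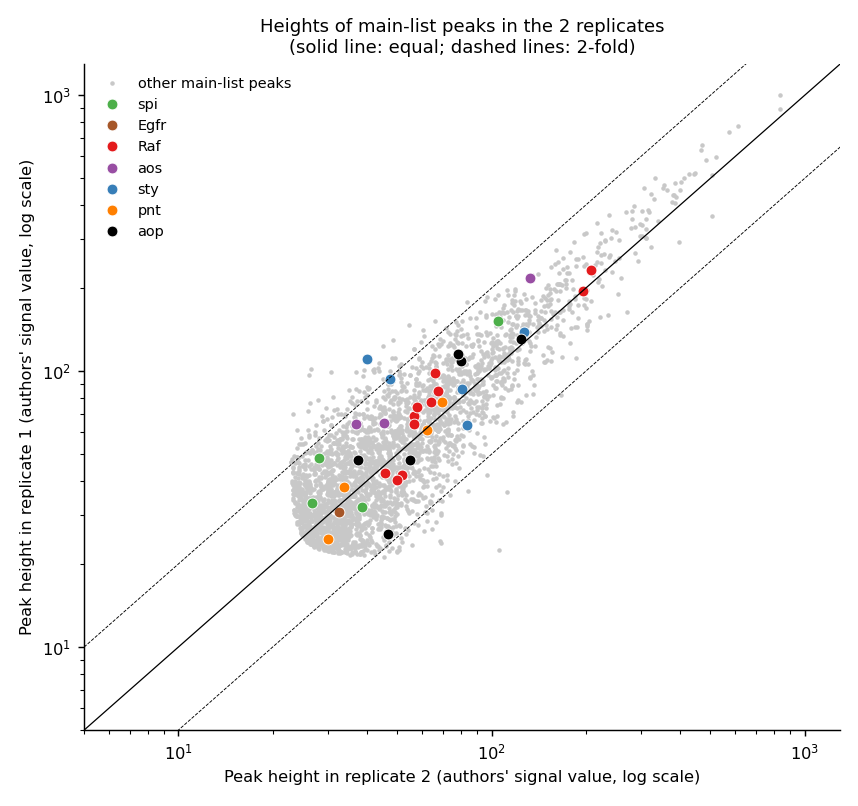
Height of each main-list peak in replicate 1 against its height in replicate 2 (both log scales). Coloured points are the 34 peaks of the named genes and grey points are the other peaks. Of the coloured points 1, the sty peak in eIF5B, lies beyond the dashed 2-fold lines, and the highest in both replicates is the leading peak of Raf.

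By position, 10 of the 34 summits lay within 500 bp of a protein-coding start (29.4%, 95% Wilson interval 16.8 to 46.2%), against 42.8% of the other main-list summits. Introns held 17 (50%, 34.1 to 65.9%), against 36.8% of the others. Both intervals include the shares of the other peaks. On the X, the chromosome of Raf, introns held 49.8% of all main-list summits. Intergenic sequence held 4 member summits, and exons of noncoding genes or untranslated regions held 3. Only spi, aos and aop had a summit within 500 bp of a start of their own, 3 of 10 genes against 13.2% of all protein-coding genes. The share over all genes was not matched for number of starts. Of the 18 annotated starts of the members, 4 were covered in this way.

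Short sequence words were counted in windows of 100 bp to each side of the summit, on both strands. GAGAG, a word bound by GAGA factor, occurred in 12 of 34 member windows (35.3%, 95% Wilson interval 21.5 to 52.1%), against 24.1% of the other main-list windows. TAATTA, the core word of homeodomain proteins, occurred in 7 (20.6%, 10.3 to 36.8%), against 15.4%. CCGGAA occurred in 1 (2.94%, 0.521 to 14.9%), against 4.63%. TATCGATA, the DNA replication-related element (DRE), occurred in none (0 of 34, with an upper bound of 10.2%), against 2.71%. All 4 shares of the other windows lay within the interval of the members. GAGAG can overlap ACAGTG, as in the aos run, and the other words were counted independently of each other.

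Both remaining words, ACAGTG and ACACTG, had been picked earlier on these same lists for their enrichment, so their presence here is no separate evidence. ACAGTG occurred in 8 member windows (23.5%), against 22.0% of the other windows, and ACACTG occurred in 6 (17.6%), against 19.1%. Either word was in 12 member windows (35.3%) and in 35.8% of the others. In the runs shown above, ACAGTG occurs at the highest peaks of spi, Raf, aos and aop. GC content of the windows had a median of 37.1% in the members and 36.3% in the others.

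A wider list of the pathway held 58 other symbols, of which 55 matched a gene symbol of the annotation. The other 3 (Gap1, Fos and Mae) did not. Synonyms were not searched, so these 3 may name genes already in the list. A main-list summit lay in or within 10 kb of 37 of these 55 genes (67.3%), against the 51.6% of all protein-coding genes given above. A summit lay inside 15 of them, against 9.4% of all genes and 42.3% of those of 20 to 60 kb. Neither comparison of the wider list was matched for gene length. Roles are those assigned when the list was made. A summit in or within 10 kb was counted for 5 of 9 genes listed under ligands and ligand processing and 4 of 5 receptor-level regulators. It was counted for 4 of 6 genes listed under adaptors and exchange and 4 of 7 Ras regulators and relatives. In the kinase cascade and its scaffolds the count was 8 of 10, and among nuclear effectors and targets 12 of 18. The counted genes include rho-7, listed under ligand processing, and Cow, listed under adaptors. Whether both act in EGF receptor signalling was not checked. Over all roles the count was 34 of 55 in the list of replicate 1, against 44% of all genes. In that of replicate 2 it was 28 of 55, against 41.8%.

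The 6 genes of the wider list with the highest main-list peaks were Shc, tay, gro, RasGAP1, edl and S. The peak of Shc, an adaptor gene, reached 407.8 in replicate 1 and 384.8 in replicate 2, but its nearest start was that of Atat, a tubulin acetyltransferase gene, at 114 bp. That of tay, a gene that limits MAP kinase activity, had 226.2 in replicate 1 and 176.6 in replicate 2 and stood 149 bp from a start of the glycolytic gene Gapdh2. In gro, which encodes the corepressor Groucho, the peak was 128 bp upstream of an internal start of the gene itself, with 173.5 in replicate 1 and 196.7 in replicate 2.

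The remaining 3 peaks stood nearest to the listed gene. RasGAP1, a gene for a protein that turns Ras off, had 200.3 in replicate 1 and 149.5 in replicate 2, at a summit 679 bp upstream. In edl, a gene for a modulator of ETS factors, the peak had 156.2 in replicate 1 and 188.4 in replicate 2, at 1810 bp from a start and in an intron. In S, the Star gene for ligand trafficking, the intronic peak had 145.8 in replicate 1 and 144.1 in replicate 2. Among the core cascade genes after Raf, Dsor1, the MAP kinase kinase gene, had no summit in any thresholded list. The MAP kinase gene rl had 1 in the main list and in that of replicate 1, and none in that of replicate 2. Dsor1, rl and stet were named after their values were seen.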

How the data were processed

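Embryos of 1 group were profiled in 2 biological replicates, and 8 peak lists on dm6 were deposited. Chromatin was sonicated to 200 to 800 bp, per the labels. The software for alignment and peak calling was not given in the sources used here. Deposited lists hold the authors' IDR score, the authors' signal value as peak height, the summit and, in ranked lists, the authors' −log10 global IDR. Nothing was renormalized. The 2 height columns of the series-wide ranked lists, which name no replicate, were not used. A further list from which the thresholded ones were derived, named in the deposited notes, was not analysed here.

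Positions are 1-based on dm6. Genes came from Ensembl release 115 and sequences from the RefSeq Release 6 genome. Peaks off the arms were left out. Counting was done in Python 3.11.15 with pandas 2.3.3 and scipy 1.17.1, and tested on simulated data. Overlap means at least 1 bp. Shares carry 95% Wilson intervals, which cover counting error only. Members, gene lists and words were chosen with earlier results of these data known. Named genes are the 10 members, the gene of the nearest start at each summit described singly, and the 6 other pathway genes with the highest peak. The 20 to 60 kb gene class was chosen after seeing the data. Alternatives were other lists, flanks, windows, promoter sizes and overlap rules.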

Additional observations from a re-analysis of the deposited data

Results flagged for a closer look

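A peak at the start of Ras85D passed the lowest IDR score of the thresholded lists in ranked lists and yet was in no thresholded list, so it is not among the counted summits. In the ranked list behind the other series-wide list, which is not called conservative, the peak at 3R:9512988-9513271 had a height of 53.0 and a score of 920, above the lowest thresholded score of 830. In the ranked list of replicate 1 the matching peak, at 3R:9513010-9513289, had a height of 37.0 and a score of 1000. The conservative ranked list gave it 575, below that lowest score. It was not alone: in the 2 lists concerned, 89 and 59 peaks on the arms passed the lowest score and were not in the thresholded list. No control sample was analysed here, and the cause was not tested.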

How the results depend on the processing

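Of 71 recomputed values of the main results, 59 were within the limits set for them, and 12 moved. These are values of the members and of the wider list. Shares of the other peaks were not recomputed under the alternative settings. Whether a comparison with the other peaks reversed there was therefore not tested. Counting peaks in the gene alone left 20 member summits, a promoter share of 15% and 15 of the 55 other pathway genes, and giving each summit to its nearest start alone left 21 of these genes; each follows from the narrower rule. With 1 replicate's own list at a time, the number of members was 6 in each, the summits were 28 to 33, the density was 6.21 to 7.32 per 100 kb, the median percentile was 55.4 to 63.3, and the wider list had 28 to 34 genes. In these lists the promoter share was 25 to 27.3%, and the shares of windows with a word were 3.03 to 3.57% for CCGGAA, 17.9 to 18.2% for TAATTA, 0% for TATCGATA, 33.3 to 50% for GAGAG, 24.2 to 28.6% for ACAGTG and 10.7 to 15.2% for ACACTG. Without replicate 1, spi had 2 summits, and Egfr had 0 without either replicate. Among the 50% of peaks with the highest signal the median percentile was 50.6. CCGGAA was in 0 windows (0%) in the other series-wide list and in windows of 50 bp to each side. GAGAG was in 8.82% of member windows of 50 bp and 52.9% of those of 200 bp to each side, and ACAGTG in 8.82% at 50 bp. No share of the other windows at these sizes stands beside them, so they do not place the members against the other peaks. No paired analysis was possible because there is 1 group and no test between groups. With 2 replicates and unknown depth, a missing peak shows only that none passed the threshold.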
